A study of Homo sapiens with 8 samples.

Results

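The sirtuins are the NAD-dependent lysine deacylases of human cells, and all 7 of them, SIRT1 to SIRT7, were chosen by symbol from a deposited table of 14526 genes. Each had a row, so the whole family is described. RNA was sequenced from 4 control cultures and from 4 cultures given 10 mM sodium benzoate (SB) for 24 h, all grown in DMEM with 10% FBS. SB is the sodium salt of benzoic acid, a food preservative that cells can convert to benzoyl-CoA, the donor for lysine benzoylation of histones. The cell line is labelled HepG2, a human hepatocellular carcinoma line, and each value describes cells under that label. Most hepatocyte genes looked up had no row, as described below, and the identity of the cells was not tested.

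A sirtuin removes an acyl group from the side chain of a lysine, consumes NAD in the reaction and releases nicotinamide. Family members sit in different compartments: SIRT1, SIRT6 and SIRT7 act mainly in the nucleus, SIRT2 mainly in the cytoplasm, and SIRT3, SIRT4 and SIRT5 in mitochondria. In liver they are known for the control of fasting metabolism, fatty acid oxidation, ammonia disposal and chromatin. SIRT2 is the sirtuin that the study followed as an enzyme acting on benzoyl-lysine. These data give mRNA levels and bear on neither protein nor enzyme activity. In bulk RNA, fewer cells that hold an mRNA and less of it per cell cannot be told apart.

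The start regions of 4 members are shown first. SIRT3 starts next to a gene that differed between the groups. SIRT1, SIRT5 and SIRT6 hold an E-box or an NRF1 core, which few promoters hold. These traits are not particular to the regions shown. SIRT2 also starts next to a gene that differed, and a SIRT4 region holds another motif that few promoters hold. The RefSeq promoter table (GRCh38.p14, 250 bases before to 50 bases after each start) matched 6 of the 7 genes with 9 start sites; SIRT7 had no entry. In the SIRT1 region (chr10:67884406-67884705, plus strand) capitals mark the E-box CACGTG. In the SIRT3 region (chr11:236882-237181, minus strand) capitals mark the 44 bases between the start of SIRT3 and the start of PSMD13, a proteasome subunit gene on the opposite strand. In the SIRT5 region (chr6:13574351-13574650, plus strand) capitals mark the NRF1 core CGCATGCG. In the SIRT6 region (chr19:4182514-4182813, minus strand) capitals mark the same NRF1 core and a CCAAT box. All are written 5′ to 3′ on the strand of the gene.
SIRT1: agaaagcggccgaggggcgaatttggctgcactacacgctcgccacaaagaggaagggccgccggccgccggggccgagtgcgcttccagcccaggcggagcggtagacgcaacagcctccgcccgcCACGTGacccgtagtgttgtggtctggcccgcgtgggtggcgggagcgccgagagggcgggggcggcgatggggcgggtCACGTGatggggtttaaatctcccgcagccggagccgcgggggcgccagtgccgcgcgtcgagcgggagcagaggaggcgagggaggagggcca
SIRT3: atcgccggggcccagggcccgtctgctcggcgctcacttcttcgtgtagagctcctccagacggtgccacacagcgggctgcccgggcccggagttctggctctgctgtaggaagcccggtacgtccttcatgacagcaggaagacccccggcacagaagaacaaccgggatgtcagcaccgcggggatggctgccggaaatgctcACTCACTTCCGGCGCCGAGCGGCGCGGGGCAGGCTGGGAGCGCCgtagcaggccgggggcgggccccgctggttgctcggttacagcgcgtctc
SIRT5: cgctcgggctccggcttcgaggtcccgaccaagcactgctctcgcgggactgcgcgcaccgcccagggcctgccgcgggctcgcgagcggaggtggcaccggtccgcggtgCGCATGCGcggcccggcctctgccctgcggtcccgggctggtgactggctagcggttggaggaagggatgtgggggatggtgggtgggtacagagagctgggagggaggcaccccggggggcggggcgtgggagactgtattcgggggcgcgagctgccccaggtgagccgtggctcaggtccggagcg
SIRT6: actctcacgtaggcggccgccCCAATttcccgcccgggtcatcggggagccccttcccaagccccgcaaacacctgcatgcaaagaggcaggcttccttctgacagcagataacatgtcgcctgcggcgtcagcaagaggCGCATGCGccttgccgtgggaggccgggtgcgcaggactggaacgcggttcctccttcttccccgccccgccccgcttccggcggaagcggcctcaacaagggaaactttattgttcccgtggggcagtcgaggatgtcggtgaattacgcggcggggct

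The 5 motifs searched on both strands were the E-box CACGTG, the cyclic AMP response element TGACGTCA, the NRF1 core CGCATGCG, the CCAAT box CCAAT and the GC box GGGCGG. In these regions only the CCAAT box of SIRT6, which shares a base with a GC box, and a pair of its GC boxes overlapped. The SIRT1 region held the E-box at 2 places, from base -123 to -118 and from -44 to -39 relative to the start, whereas 7.26% of all 35116 promoter entries held it at all. The NRF1 core was in the SIRT5 region and in 1 of 2 start regions of SIRT6, from -110 to -103, against 2.02% of all entries. A cyclic AMP response element lay in 1 of 2 start regions of SIRT4, from -51 to -44, against 1.85% of all entries. That start, at base 120292189, lies before the GENCODE span of SIRT4 given below, which begins at 120302316. The other SIRT4 start, at 120302321, held none of the 5 motifs. The CCAAT box was found in SIRT2 and in the SIRT6 region shown (34.6% of all entries). The GC box was in SIRT1, SIRT3, SIRT5 and SIRT6 (45.0% of all entries). The motifs were chosen with the sequences in view, and a match is a description of letters and not of a bound site.

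Before the sirtuins were compared, the libraries were examined. Reads recovered on the listed genes ranged from 37008399 to 44515416 in the control libraries and from 37179398 to 44899252 in the SB-treated libraries. Control replicate 1 stood apart: it was far from the other 3 control libraries at 14.6% of genes, against 0.317% to 0.620% for each of the others. The GC content of the transcripts accounted for 50.8% of the variance of its deviation across genes. For all 7 sirtuins it was the extreme control library, the highest for SIRT1 and SIRT5 and the lowest for the other five. GC content was taken from the longest GENCODE transcript of each gene, which need not be the counted sequence. For SIRT2 that transcript has 4734 bases against 2399 counted, and for SIRT7 it has 3445 against 1731. Transcripts of SIRT1 and SIRT5 had the lowest GC contents of the family, 40.6% and 44.9%, and the others ranged from 51.3% for SIRT4 to 64.9% for SIRT6. Results are therefore given with and without control replicate 1, and the part of GC content in each was not tested beyond the correction described with them. Of 24 hepatocyte genes looked up, 20 had no row in the table, which holds genes above a minimum count, and among those were ALB, APOA1, APOB, TTR, AFP and HNF4A. The summed level of the 4 with a row, CPS1 among them, was 7.04 to 7.97 RPKM in the control libraries and 12.7 to 12.9 RPKM in the SB-treated ones. Most defining mRNAs of the labelled cell type were thus absent from the table. Of 6 fibroblast, 5 leukocyte, 4 endothelial and 4 epithelial markers, 3, 2, 1 and 3 had a row; their summed levels in the 8 libraries were 6.07 to 8.32, 1.99 to 2.37, 0.113 to 0.348 and 56.7 to 71.3 RPKM.

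**Figure D1:**
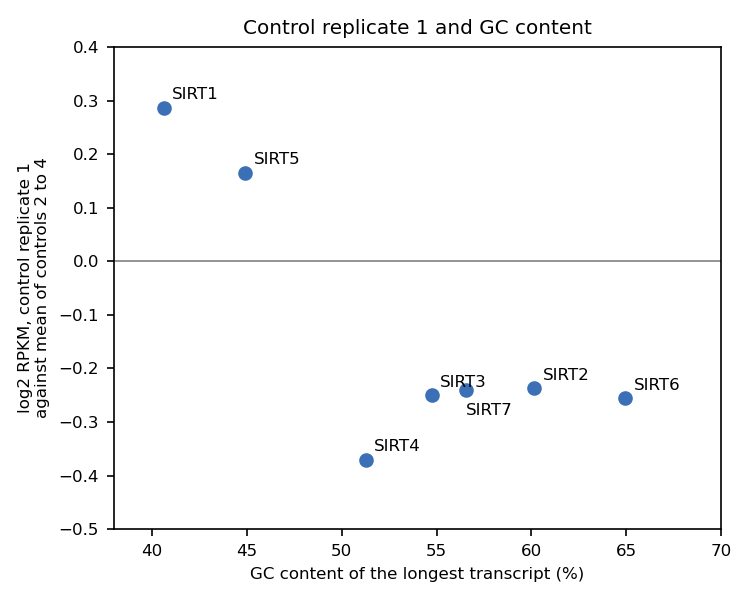
Deviation of control replicate 1 from the mean of control replicates 2 to 4 (log2 RPKM, vertical axis) against the GC content of the longest transcript (percent, horizontal axis), 1 point for each sirtuin gene. SIRT1 and SIRT5, with 40.6% and 44.9% GC, lie above 0, and the other five lie below it.

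Levels are given as RPKM (reads scaled to gene length and library size), which allows genes to be set side by side. Over all 8 libraries the mean level of SIRT1 was above those of 74.4% of the listed genes. In control cells SIRT1 had the highest level of the family, 22.3 ± 2.34 RPKM (SD, n = 4). SIRT2 followed at 18.0 ± 1.42 RPKM and SIRT6 at 13.8 ± 1.39 RPKM. SIRT3 was at 8.33 ± 0.739 RPKM and SIRT7 at 6.78 ± 0.639 RPKM. The mitochondrial SIRT5 and SIRT4 were lowest, at 3.94 ± 0.250 and 2.04 ± 0.247 RPKM. SIRT4 rested on 86 to 141 reads a library, while SIRT1 rested on 3218 to 4737. In SB-treated cells the order of the 7 means was the same, and it stayed so when any 1 library was left out. Among neighbours in that order, only SIRT3 and SIRT7 had overlapping ranges, in both groups; every other pair of neighbours was separate in both.

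**Figure D2:**
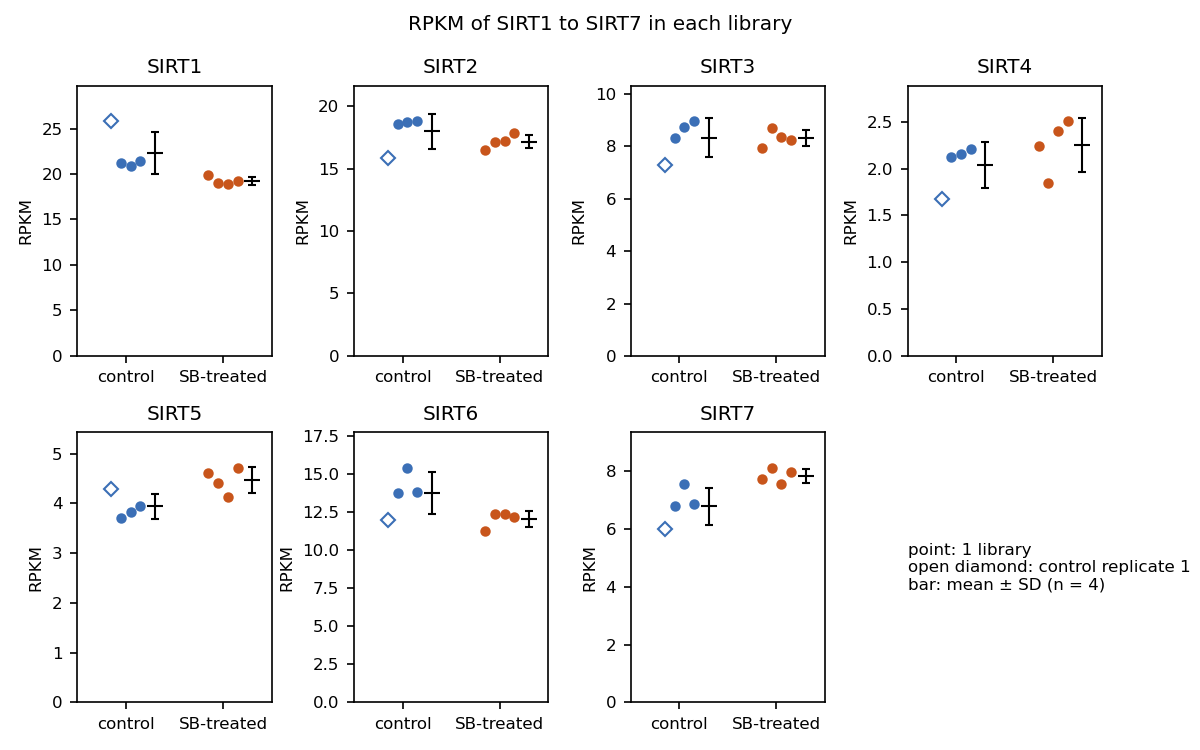
RPKM of each sirtuin mRNA (vertical axes from 0) in 4 control and 4 SB-treated libraries; points are libraries, the open diamond is control replicate 1, and bars show the mean ± SD. SIRT1 and SIRT7 have groups that do not overlap; the SIRT5 and SIRT6 groups overlap through control replicate 1 and are separate without it.

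With all 8 libraries, 4 of the 7 sirtuin mRNAs differed between the groups: SIRT1 and SIRT6 were lower after SB, and SIRT5 and SIRT7 were higher. SIRT2, SIRT3 and SIRT4 did not pass the test, which was limma on log2(RPKM + 1), its p-values adjusted by Benjamini-Hochberg across the 14526 genes. In this comparison 65.6% of all genes passed (33.0% higher and 32.6% lower), so 4 of 7, or 57.1%, was near the background. SIRT1 and SIRT7 were the 2 whose groups did not overlap, against 61.5% of all genes (31.0% higher and 30.5% lower). Without control replicate 1, 5 of 7 passed (SIRT2 as well) against 75.5% of all genes. With trends on gene length and GC content removed, 5 of 7 passed (SIRT4 and SIRT2 in, SIRT5 out) against 71.0%, and without the TMM library factors 2 of 7 passed (SIRT5 and SIRT7) against 66.2%. With all 8 libraries no sirtuin moved by more than 15.5% of its control mean; when control replicate 1 was left out, the ratio of the means was furthest from 1 for SIRT5 (1.17) and SIRT6 (0.840). Over all 8 libraries the sizes of the 7 log2 fold changes lay between the 0.193 and 49.4 percentiles of the sizes of all genes, so each was smaller than that of the median gene. The median size was 0.15 on the log2 scale for the 7 sirtuins and 0.20 for all genes.

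SIRT1, the nuclear deacetylase of p53, FOXO factors and PGC-1α, is encoded on the plus strand at chr10:67884656-67918390 (hg38, GENCODE). It was measured at 25.8, 21.2, 20.9 and 21.4 RPKM in control replicates 1 to 4 and at 19.9, 19.0, 18.9 and 19.2 RPKM in the SB-treated replicates. Every SB-treated library lay below every control library, and control replicate 1 lay well above the other three. The SB-treated mean was 19.3 ± 0.455 RPKM, and the log2 fold change was -0.20 (95% interval -0.34 to -0.06, limma adjusted p = 0.0195; exact permutation p = 0.0286, two-sided, the smallest that 4 against 4 allows). Without control replicate 1 the SIRT1 difference was -0.13 (limma adjusted p = 0.00179). When the libraries were scaled without their TMM factors, the SIRT1 difference was -0.10 and did not pass (limma adjusted p = 0.177).

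SIRT6, the chromatin-bound deacetylase of histone H3 that is known to repress glycolytic genes, lies on the minus strand at chr19:4174109-4182566. Control values were 12.0, 13.7, 15.4 and 13.8 RPKM, and SB-treated values were 11.2, 12.4, 12.4 and 12.2 RPKM. Only control replicate 1 lay within the SB-treated range; the other 3 control libraries lay above it. The SB-treated mean was 12.0 ± 0.541 RPKM, with a log2 fold change of -0.17 (95% interval -0.32 to -0.03, limma adjusted p = 0.0412; exact permutation p = 0.114). The SIRT6 difference was -0.23 when control replicate 1 was left out (limma adjusted p = 0.00148), and it passed in 1 of the 8 fits that left out a library, that one. Leaving out any of the other 7 gave limma adjusted p-values up to 0.111 for SIRT6, so its call depended on which libraries were kept. Without TMM factors the SIRT6 difference was -0.08 (limma adjusted p = 0.348).

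SIRT7, the nucleolar sirtuin that acts on histone H3 lysine 18 and associates with RNA polymerase I, lies on the minus strand of chromosome 17 (chr17:81911939-81921323). Its control values were 5.97, 6.78, 7.53 and 6.84 RPKM, and its SB-treated values were 7.73, 8.11, 7.55 and 7.95 RPKM. The groups did not overlap, although control replicate 3 lay just below SB-treated replicate 3. The SB-treated mean was 7.83 ± 0.244 RPKM, and the log2 fold change was 0.19 (95% interval 0.06 to 0.32, limma adjusted p = 0.0171; exact permutation p = 0.0286). SIRT7 passed under every alternative tried, with log2 fold changes of 0.13 without control replicate 1 and 0.28 without TMM factors. In GENCODE the SIRT7 gene shares 3054 bases of the same strand with MAFG, a small MAF transcription factor gene, while in RefSeq the 2 genes are 93 bases apart. MAFG was at 7.27 ± 0.653 RPKM in control and 14.6 ± 0.125 RPKM in SB-treated cells, a log2 fold change of 0.92 (limma adjusted p = 9.9e-07). SIRT7 was counted over 1731 bases, and its longest GENCODE transcript has 3445. The counted gene thus did not hold all of that transcript. Whether it held part of the shared stretch is not given in the sources used here. The part of MAFG in the SIRT7 difference was not tested. PCYT2, 507 bases away on the other side, was at 7.33 ± 0.738 and 7.66 ± 0.133 RPKM and did not pass (log2 fold change 0.06, limma adjusted p = 0.405).

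SIRT2, the mainly cytoplasmic deacetylase of α-tubulin that also acts on histone H4 lysine 16, lies on the minus strand at chr19:38878555-38899862. Control replicates had 15.9, 18.6, 18.7 and 18.8 RPKM, and SB-treated replicates had 16.5, 17.1, 17.2 and 17.8 RPKM. Control replicates 2 to 4 lay above all SB-treated libraries, and control replicate 1 lay below all of them. The SB-treated mean was 17.2 ± 0.549 RPKM, and the log2 fold change of -0.06 (95% interval -0.19 to 0.06) did not pass (limma adjusted p = 0.357; exact permutation p = 0.314). The SIRT2 difference was -0.12 and passed when control replicate 1 was left out (95% interval -0.18 to -0.05, limma adjusted p = 0.0054). Without TMM factors SIRT2 turned to 0.04 (limma adjusted p = 0.573). NFKBIB, an inhibitor of NF-κB on the opposite strand, shares 163 bases with SIRT2 in GENCODE, while in RefSeq the 2 genes are 47 bases apart. NFKBIB was lower after SB, from 14.3 ± 0.931 to 11.2 ± 0.666 RPKM (log2 fold change -0.33, limma adjusted p = 0.000541). Whether the counting used strand is not given in the sources used here.

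SIRT3, the main deacetylase of mitochondrial proteins, lies on the minus strand at chr11:215030-236931. Control values were 7.30, 8.32, 8.74 and 8.96 RPKM, and SB-treated values were 7.94, 8.71, 8.36 and 8.25 RPKM. The SB-treated libraries, with a mean of 8.32 ± 0.315 RPKM, all lay inside the range of the control libraries. The log2 fold change was 0.00 (95% interval -0.13 to 0.13, limma adjusted p = 0.990; exact permutation p = 0.971), and without control replicate 1 it was -0.05 (limma adjusted p = 0.188). PSMD13, whose start faces that of SIRT3 across the 44 bases shown in capitals above, was lower after SB, from 65.4 ± 2.14 to 48.2 ± 0.587 RPKM (log2 fold change -0.43, limma adjusted p = 5.8e-06). The difference between these neighbours was not tested. RIC8A, which shares 84 bases with the other end of SIRT3 on the opposite strand, was at 24.2 ± 2.76 and 26.8 ± 0.583 RPKM and did not pass (limma adjusted p = 0.0926).

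SIRT4, a mitochondrial lipoamidase and ADP-ribosyltransferase known to inhibit pyruvate and glutamate dehydrogenases, lies on the plus strand at chr12:120302316-120313249. Its control values were 1.67, 2.12, 2.15 and 2.20 RPKM and its SB-treated values 2.24, 1.85, 2.40 and 2.51 RPKM. SB-treated replicate 2 lay within the control range and the other 3 SB-treated libraries lay above it. The SB-treated mean was 2.25 ± 0.288 RPKM, and the log2 fold change was 0.10 (95% interval -0.08 to 0.27, limma adjusted p = 0.289; exact permutation p = 0.314). When control replicate 1 was left out, the SIRT4 difference was 0.04 (limma adjusted p = 0.616). After each library was corrected for trends on gene length and GC content, the SIRT4 difference was 0.27 and passed (limma adjusted p = 0.00524).

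SIRT5, the mitochondrial demalonylase, desuccinylase and deglutarylase that is known to act on CPS1 of the urea cycle, lies on the plus strand at chr6:13574227-13615158. It was measured at 4.29, 3.71, 3.83 and 3.94 RPKM in control libraries and at 4.60, 4.42, 4.13 and 4.72 RPKM in SB-treated libraries. Control replicate 1 was the only control library within the SB-treated range. The SB-treated mean was 4.47 ± 0.255 RPKM, and the log2 fold change was 0.15 (95% interval 0.04 to 0.25, limma adjusted p = 0.0240; exact permutation p = 0.0571). When control replicate 1 was left out, the SIRT5 difference was 0.18 (limma adjusted p = 0.0025). After the correction for length and GC content it was 0.07 and did not pass (limma adjusted p = 0.136), and with that correction and without control replicate 1 it was 0.09 and passed (limma adjusted p = 0.042). Leaving out single libraries kept the SIRT5 call in 4 of 8 fits; it was lost without control replicate 2 or 3 and without SB-treated replicate 1 or 4 (limma adjusted p = 0.0681, 0.0591, 0.0637 and 0.0733). NOL7, the neighbour 177 bases away on the same strand, was lower, from 67.9 ± 3.94 to 56.8 ± 0.631 RPKM (log2 fold change -0.25, limma adjusted p = 0.000677).

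Of the remaining neighbours, HERC4 beside SIRT1 was higher after SB, from 8.31 ± 0.541 to 10.8 ± 0.135 RPKM (log2 fold change 0.34, limma adjusted p = 1.0e-04). RINL beside SIRT2 and ANKRD24 beside SIRT6 did not pass, with log2 fold changes of 0.11 and -0.04 (limma adjusted p = 0.0724 and 0.507). CREB3L3 beside SIRT6, and the noncoding genes that overlap SIRT4 and SIRT5, had no row.

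**Figure D3:**
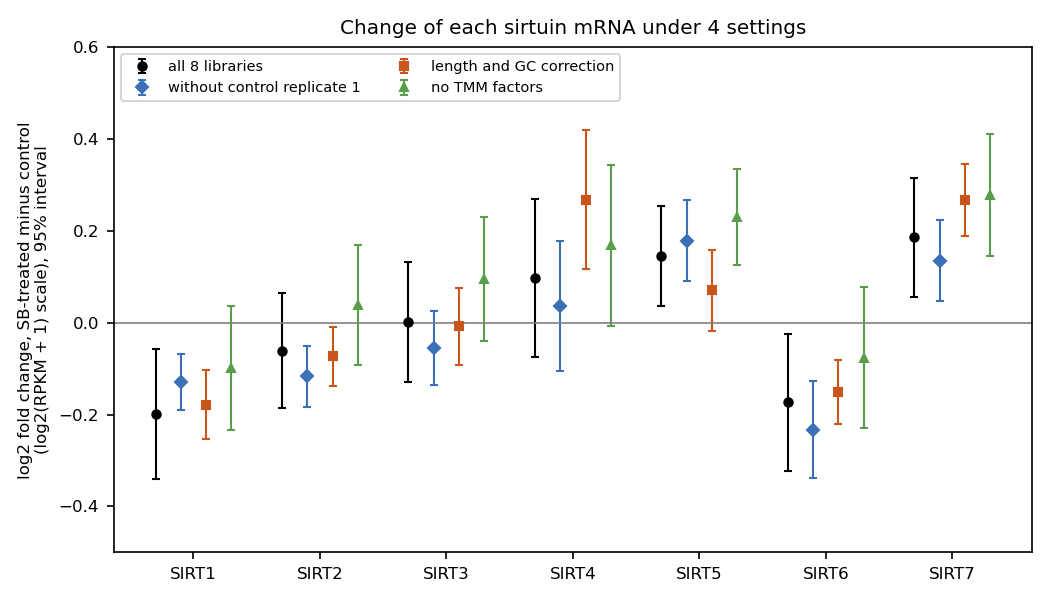
Log2 fold change of each sirtuin, SB-treated minus control on the log2(RPKM + 1) scale, with its 95% interval under 4 settings. SIRT7 is above 0 in every setting shown, the SIRT1 and SIRT6 intervals reach 0 only without TMM factors, and the value of SIRT2 crosses 0 without them.

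Ratios between sirtuins of one library do not depend on how libraries were scaled, so they describe the members relative to each other. SIRT6 rested on 707 to 927 reads a library and SIRT7 on 440 to 640. Their ratio was 2.03 ± 0.0146 in control libraries (n = 4, range 2.01 to 2.05), control replicate 1 included. In SB-treated libraries the ratio of SIRT6 to SIRT7 was 1.54 ± 0.0760 (range 1.46 to 1.64). It is 1 of 21 ratios examined, and the narrowness of its control range was not tested. For this ratio all SB-treated libraries lay below all control libraries, a difference of -0.40 on the log2 scale (exact permutation p = 0.0286, two-sided, and 0.0857 after Benjamini-Hochberg adjustment over 21 pairs). The ratio of SIRT1 to SIRT5 went from 5.65 ± 0.273 to 4.32 ± 0.206, and that of SIRT1 to SIRT7 went from 3.34 ± 0.678 to 2.46 ± 0.102. SIRT2 against SIRT7 went from 2.66 ± 0.124 to 2.19 ± 0.0840, and SIRT3 against SIRT7 from 1.23 ± 0.0617 to 1.06 ± 0.0363. The ratio of SIRT2 to SIRT6 went from 1.31 ± 0.0671 to 1.43 ± 0.0450, and that of SIRT3 to SIRT6 from 0.607 ± 0.0328 to 0.691 ± 0.0166. These 7 of 21 ratios had groups that did not overlap, each with an exact permutation p of 0.0286, the smallest possible. None stayed below 0.05 after adjustment (0 of 21, smallest 0.0857). Because no exact permutation p can be below 0.0286 here, adjusted values could pass only if more of the 21 pairs reached it. The adjusted values therefore cannot decide about any single ratio. The 21 ratios are built from 7 genes and are not independent. Of all single genes, 61.5% had groups that did not overlap, and the share for ratios of other genes was not computed. By contrast, the ratio of SIRT1 to SIRT2 went from 1.26 ± 0.248 to 1.12 ± 0.0577 with overlapping groups (exact permutation p = 0.400), and that of SIRT1 to SIRT6 from 1.65 ± 0.346 to 1.60 ± 0.114 (exact permutation p = 0.857). Without control replicate 1, 10 of the 21 ratios did not overlap, and again none stayed below 0.05 after adjustment (0 of 21, smallest 0.06). The smallest possible exact permutation p was again 0.0286, so the same limit applied. SIRT6 and SIRT7 have similar deviations in control replicate 1 (-0.26 and -0.24 on the log2 scale).

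**Figure D4:**
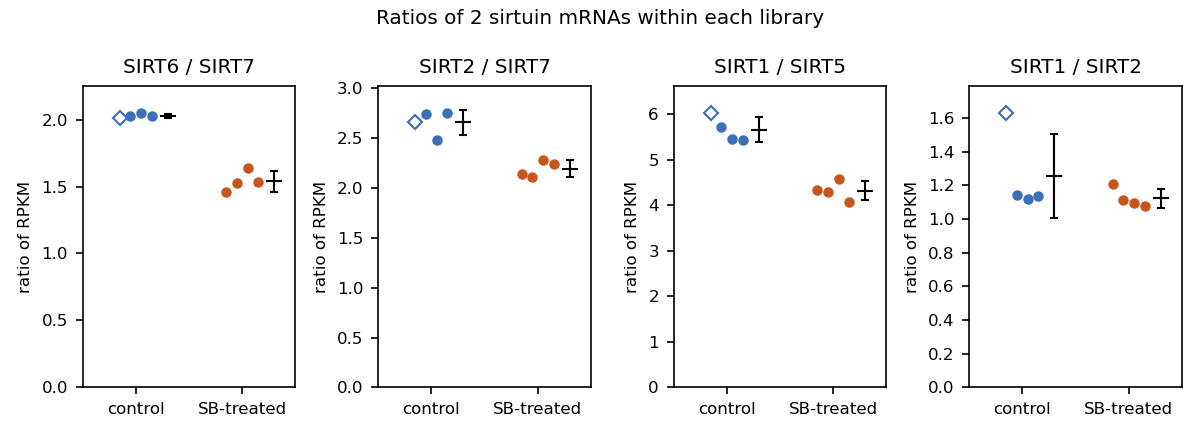
Ratio of the RPKM of 2 sirtuins within each library (vertical axes from 0), for 4 control and 4 SB-treated libraries, with the mean ± SD; the open diamond is control replicate 1. The SIRT6 to SIRT7 ratio is 2.01 to 2.05 in the 4 control libraries and 1.46 to 1.64 after SB, while the SIRT1 to SIRT2 ratio overlaps.

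As shares of the summed RPKM of the 7 genes, SIRT1 made up 29.8% ± 3.81 in control and 27.0% ± 0.921 in SB-treated libraries (SD, n = 4). SIRT2 held 23.9% ± 1.47 and 24.1% ± 0.453, and SIRT6 held 18.3% ± 1.43 and 16.9% ± 0.639. SIRT7 held 9.02% ± 0.641 and 11.0% ± 0.285, with no overlap between the groups. SIRT3 held 11.1% and 11.7%, SIRT5 5.25% and 6.26%, and SIRT4 2.71% and 3.15%.

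The genes most like each sirtuin were sought by the Pearson correlation of log2(RPKM + 1) over the 8 libraries, among 12544 genes with a mean RPKM of at least 1. SIRT1 was most like UBA3, MTRF1L and POLR2K (r = 0.997, 0.996 and 0.996). SIRT6 was most like RPS19BP1, RPLP2 and TSR3 (r = 0.988, 0.986 and 0.986), and SIRT7 like LAMB2P1, RNF10 and SLC16A13 (r = 0.994, 0.993 and 0.985). SIRT2 was most like TTC7A, EMID1 and R3HDM4 (r = 0.986, 0.985 and 0.983), and SIRT5 like GCA, BIVM and PDCD6IPP2 (r = 0.976, 0.976 and 0.971). For SIRT3 they were TMEM120B, C11orf49 and CSPG4 (r = 0.969, 0.968 and 0.963), and for SIRT4 they were PAAF1, PIGV and PPAP2C (r = 0.931, 0.910 and 0.898). The 8 points share the group difference and the deviation of control replicate 1, so these correlations describe the libraries.

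Genes that make or use NAD, the cosubstrate of every sirtuin, were called in both directions. Of 35 listed, 24 had a row: 11 were lower, 3 higher and 10 did not pass (limma adjusted p below 0.05), with a median log2 fold change of -0.15 against 0.00 for all genes. The 14 called were 58.3% of the 24, against 65.6% of all genes (33.0% higher and 32.6% lower). PARP1, the main poly(ADP-ribose) polymerase and itself a consumer of NAD, was at 491 ± 4.55 RPKM in control and 326 ± 1.70 RPKM in SB-treated cells, a log2 fold change of -0.59 (limma adjusted p = 5.1e-07). NAPRT, which starts NAD synthesis from nicotinic acid, fell by 0.54 (limma adjusted p = 0.000368), and PNP, the purine nucleoside phosphorylase that also cleaves nicotinamide riboside, fell by 0.48 on the log2 scale (limma adjusted p = 1.3e-05). NMNAT2, the Golgi-bound NMN adenylyltransferase, rose from 2.77 ± 0.118 to 4.20 ± 0.284 RPKM (log2 fold change 0.47, limma adjusted p = 1.8e-05). PARP4 (0.45) and the NAD glycohydrolase SARM1 (0.31) were the other two that rose. NAMPT, the rate-limiting enzyme of the salvage of nicotinamide released by sirtuins, was among the 11 that were lower and was named after its value was seen: it went from 44.1 ± 6.52 to 36.4 ± 1.36 RPKM (log2 fold change -0.26, limma adjusted p = 0.0211). Without control replicate 1 the list had 15 lower and 6 higher genes, and without TMM factors it had 6 lower and 7 higher, so the split between directions depended on the scaling.

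**Figure D5:**
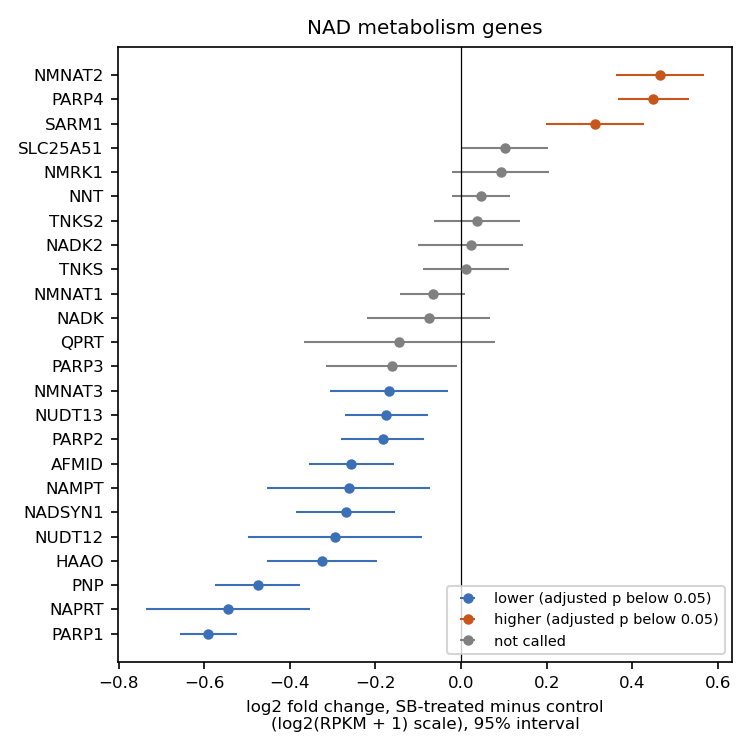
Log2 fold change, SB-treated minus control on the log2(RPKM + 1) scale, with 95% intervals, for the 24 NAD metabolism genes with a row. Of these, 11 are lower, 3 are higher and 10 are not called, from PARP1 at -0.59 to NMNAT2 at 0.47.

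Of 22 regulators and partners of sirtuins, all had a row, and 8 were higher, 4 lower and 10 not called, with a median log2 fold change of 0.09. That made 54.5% called, against 65.6% of all genes. PRKAA2, a catalytic subunit of AMP-activated protein kinase, rose from 13.0 ± 1.02 to 17.4 ± 0.787 RPKM (log2 fold change 0.39, limma adjusted p = 0.00019). HIC1, a repressor of SIRT1 transcription, rose by 0.30 from a level of 0.309 ± 0.116 RPKM, and HDAC6, the other α-tubulin deacetylase, rose by 0.29. NQO1, a quinone reductase that oxidises NADH, fell by 0.31 on the log2 scale, ELAVL1, an RNA-binding protein known to stabilise SIRT1 mRNA, fell by 0.20, and CTBP2, an NADH-binding corepressor, fell by 0.16. CCAR2, the protein inhibitor of SIRT1, went from 23.8 ± 1.44 to 25.9 ± 0.441 RPKM (log2 fold change 0.12, limma adjusted p = 0.0444), and RPS19BP1, an activator of SIRT1, from 54.9 ± 6.59 to 47.6 ± 2.41 RPKM (log2 fold change -0.20, limma adjusted p = 0.0492); both were named after their values were seen. With trends on gene length and GC content removed, CCAR2 was at 0.013 and RPS19BP1 at -0.010. Neither then passed (limma adjusted p = 0.634 and 0.890). Without TMM factors, 13 of the 22 were higher and 1 lower.

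Among the mRNAs of 43 proteins on which sirtuins are known to act, 40 had a row, and 21 were lower, 6 higher and 13 not called (median log2 fold change -0.16). The share called, 67.5%, was near the 65.6% of all genes, of which 33.0% were higher and 32.6% lower. The largest falls among them were in ACSS1, the mitochondrial acetyl-CoA synthetase (-0.60, from 11.4 ± 0.963 to 7.14 ± 0.147 RPKM), in PDHB, a subunit of pyruvate dehydrogenase (-0.59), and in the nucleolar protein gene NPM1 (-0.57). Among the rises were CPS1, the first enzyme of the urea cycle (0.67, from 6.57 ± 0.319 to 11.0 ± 0.0631 RPKM), and the ETS factor gene ELK4 (0.32). CPS1 also stands among the hepatocyte genes described above.

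Metabolic genes known to be repressed by SIRT6 were mostly lower. Of 12 listed, 11 had a row: 9 were lower, 1 was higher and 1 did not pass, with a median log2 fold change of -0.37 against 0.00 for all genes. The 10 called were 90.9% of the 11, against 65.6% of all genes (32.6% lower). LDHA, lactate dehydrogenase A, went from 382 ± 20.3 to 208 ± 3.52 RPKM (log2 fold change -0.87, limma adjusted p = 4.4e-07). PDK1, an inhibitory kinase of pyruvate dehydrogenase, fell by 0.84 and ALDOC, an aldolase, fell by 0.73 on the log2 scale. SREBF2, the sterol-responsive transcription factor, was the one that rose, from 30.8 ± 2.94 to 43.8 ± 0.331 RPKM (log2 fold change 0.50, limma adjusted p = 7.8e-05). When single libraries were left out, 8 to 10 were lower and 1 was higher.

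The zinc-dependent deacetylases, which share substrates with sirtuins but use no NAD, were called in both directions. Of these 11 genes 7 were higher, 3 lower and 1, HDAC11, was not called (median log2 fold change 0.15). The share called was 90.9%, against 65.6% of all genes (33.0% higher and 32.6% lower). With trends on gene length and GC content removed, HDAC4 and HDAC9 no longer passed (limma adjusted p = 0.413 and 0.309). HDAC11 again did not pass, while 71.0% of all genes did. In the fits that left out a library, 5 to 7 were higher and 2 to 3 lower. HDAC10 rose by 0.52, from 5.24 ± 0.949 to 7.90 ± 0.589 RPKM, HDAC7 by 0.40 and HDAC5 by 0.34. HDAC3 fell by 0.36, from 65.7 ± 0.993 to 50.9 ± 0.755 RPKM, HDAC2 fell by 0.33 and HDAC8 fell by 0.18. The difference between 10 of 11 deacetylases and 4 of 7 sirtuins was not tested.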

How the data were processed

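Total RNA was extracted with the RNeasy kit from 4 control cultures and 4 cultures treated with 10 mM SB for 24 h. The study describes a stranded total RNA library and single reads. The authors mapped them to hg38 with TopHat 2.1.0, counted them per gene with featureCounts 1.5.0, filtered for more than 1 CPM in 2 or more samples, scaled libraries by TMM in edgeR 3.16.5 and deposited RPKM values for 14526 genes. The deposited log2 values (mean log CPM and fold change), p-values and FDR of the authors' own comparison were not used as results; mean log CPM served only to find gene lengths.

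Groups and replicate numbers came from the sample titles. Log2(RPKM + 1) was compared with limma 3.58.1 in R 4.3.3 over all genes, with Benjamini-Hochberg adjustment and a threshold of 0.05; adding 1 shrinks fold changes of weakly expressed genes. Single genes and ratios were also compared by exact two-sided permutation tests. Whole reads were recovered from the deposited RPKM for 99.8% of genes (within 0.02 of a whole number). This step and the limma fit were tested on simulated data with known answers. The folds simulated for limma were 1.25, 1.5, 2 and 0.5, so changes as small as those of the sirtuins were not covered. GC content came from GENCODE release 44 transcripts, for 97.0% of genes; positions are GENCODE's on hg38. Motifs and figures were made with Python 3.11.15.

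The members and gene lists were chosen with earlier results of these data known. Named genes were all sirtuins, up to 3 rises and 3 falls of each list that passed the threshold without overlap, the 3 genes most like each sirtuin, and neighbours within 5 kb. Alternatives were a pseudocount of 0.1, a mean RPKM of at least 1, other library scalings, the replicate number as a block, a correction for length and GC content, an intensity trend, voom on recovered reads, and leaving out each library. Voom with the block, some fits that combined a setting with leaving out control replicate 1, and the test of the 21 ratios were chosen after seeing the data. A protein comparison was not run. Some genes that the naming rule covers are not reported here. Whether the replicate numbers pair the samples was not tested, and the main fit did not use them.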

Additional observations from a re-analysis of the deposited data

Results flagged for a closer look

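Within groups of 4, single libraries lay far from the others for 4 of the 14 combinations of sirtuin and group, where about 0.7 would be expected by chance at this criterion (Dixon's 95% critical value). For SIRT1, control replicate 1 lay above the others by 0.885 of the control range. For SIRT2 the same library lay below the others by 0.932 of the range, and for SIRT4 it lay below them by 0.854. For SIRT6, SB-treated replicate 1 lay below the other SB-treated libraries by 0.831 of the range. The 4 are not independent, since 3 come from control replicate 1. Without SB-treated replicate 1 the SIRT6 difference was -0.14 (limma adjusted p = 0.111).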

How the results depend on the processing

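The call of SIRT7 held under every alternative, and that of SIRT1 under all but the fits without TMM factors. Without TMM factors the median log2 ratio of all genes was 0.11 in place of 0.01, the SIRT1 and SIRT6 differences were -0.098 and -0.076 and no longer passed, SIRT2 turned to 0.039, and 0 sirtuins were called lower by limma (0 at an unadjusted p under 0.05; voom was not run without these factors). The NAD metabolism genes were then 7 higher and 6 lower, and the regulators and partners 13 higher and 1 lower. With the pseudocount of 0.1, SIRT6 was at -0.19 and did not pass, leaving 1 sirtuin called lower. With the length and GC correction, SIRT2 was at -0.073 and SIRT4 at 0.27 and both passed, SIRT5 was at 0.070 and did not pass, and SIRT3 turned to -0.0075. With median-of-ratios scaling SIRT3 turned to -0.0027. The cause of these changes was not tested.

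With 1 library left out, the log2 fold changes lay between -0.23 and -0.13 for SIRT1, -0.12 and -0.040 for SIRT2, -0.054 and 0.034 for SIRT3, 0.036 and 0.16 for SIRT4, 0.123 and 0.179 for SIRT5, -0.23 and -0.12 for SIRT6, and 0.13 and 0.23 for SIRT7. Of the sirtuins 1 to 2 were then called higher and 1 to 3 lower; NAD metabolism genes were 3 to 6 higher and 9 to 15 lower, and regulators and partners 5 to 9 higher and 3 to 5 lower. Without control replicate 1 and without TMM factors, SIRT1 was at -0.033 and did not pass, 1 sirtuin was called lower, and 8 NAD genes, 13 regulators and 10 substrates were called higher. Without that library and with the length and GC correction, SIRT2 was at -0.081 and SIRT4 at 0.22 and both passed, SIRT5 was at 0.094 and passed (limma adjusted p = 0.042), so that 3 sirtuins were called higher, SIRT3 was at -0.034, 5 NAD genes were called higher and 8 regulators lower. Voom without it gave -0.12 for SIRT2, which passed, -0.061 for SIRT3 and 6 NAD genes called higher.

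The correlations of deviations between same-numbered libraries were 0.38, 0.33, 0.17 and -0.16. Their mean was 0.18, against a mean of -0.054 for libraries with other numbers. Whether the replicate number in the titles pairs the samples was not tested. A block on that number let 9779 genes pass in place of 9527. Added to the main fit, the block changed no call among the sirtuins. Added to the length and GC correction, it ended the call of SIRT2 (-0.073, limma adjusted p = 0.054), leaving 2 sirtuins called lower in place of 3, while SIRT4 was again at 0.27, SIRT5 at 0.070 and SIRT3 at -0.0075; with voom and the block SIRT3 was at -0.00081.

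Of 70 sirtuin fold changes under settings that kept all libraries, 57 stayed on the same side of the threshold in the same direction. Depth limits SIRT4 most, which had 86 to 141 reads a library.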
